A study of Mus musculus with 8 samples.

Results

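The genes of mitochondrial and peroxisomal fatty acid oxidation were described in quadriceps muscle as a set of 32 named genes. They were chosen by function, with earlier results of these data known. The set holds the enzymes that activate fatty acids, the carnitine shuttle, the enzymes of mitochondrial beta-oxidation, the proteins that pass on its electrons and 4 peroxisomal genes. All 32 were found among the 43239 distinct gene names of the deposited tables, and all 32 were among the 11878 genes tested, those whose mean reached 1 FPKM (sequenced fragments scaled by the length of the transcript and the depth of the library). None of the 32 was listed at 0 in any library.

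RNA was sequenced from the quadriceps of 8 female mice aged 6 months, with 1 library per mouse. The WT group was 4 libraries labelled wild type, and the KO group was 4 labelled as lacking Mss51, a gene for a mitochondrial protein of skeletal muscle. The strain, the deleted exons and any litter or batch are not given in the sources used here. By its title, the series asks what loss of Mss51 does to muscle metabolism and to the handling of glucose.

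Fatty acids are oxidised in mitochondria after they are bound to coenzyme A on the outer membrane and carried across the inner membrane as carnitine esters. Each turn of beta-oxidation then removes an acetyl unit in a dehydrogenation, a hydration, another dehydrogenation and a cleavage by thiolase, and electrons from the first step reach ubiquinone through the electron transfer flavoprotein. Peroxisomes shorten very long and branched chains with enzymes of their own. In skeletal muscle the pathway is a main source of energy at rest and in long exercise, and oxidative fibres hold more of it than glycolytic ones.

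The targeted gene goes against the labels. Mss51 stood at 22.9 to 37.0 FPKM in the libraries labelled WT and at 201 to 340 FPKM in those labelled KO, a log2 fold change of 3.07 (SE 0.20, adjusted p = 0.000643 by limma, a linear model of log values fitted across all genes tested). Every direction given here is therefore that of the labels, as KO minus WT. The tissue label was checked by Ckm, the muscle creatine kinase, at 9230 to 12716 FPKM. Myh4, the myosin of the fastest fibres, was listed at 0 in all 8 libraries, so a value of 0 in these tables can be a failed estimate. A rough estimate of depth from low values gave 37.7 to 59.9 M fragments per library (M for mega), where the labels state 50 M read pairs of 150 bases. With 1 library per mouse, the limma p-values rest on the spread between mice, moderated towards that of genes at a similar level. No counting error can be given from FPKM.

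The DNA just before some of the genes whose values carry the results was read from RefSeq (GRCm38.p6, the build of mm10). It shows the promoter letters of some members called without KO replicate 1. Beside them is Cpt1a, which was not called and did not share their pattern. Each sequence runs 5′ to 3′ in the direction of the gene, and capitals mark GGGCGG, the GC box bound by Sp1, and AGGTCA, the core site of many nuclear receptors, or their reverse complements CCGCCC and TGACCT. The first is the whole stretch of 85 bases between Hadha (minus strand, chr5:30118304-30155162) and Hadhb (plus strand, chr5:30155248-30184593), 2 genes that are read away from each other and encode the alpha and beta subunits of 1 enzyme. It is printed on the plus strand, chr5:30155163-30155247, and 69.4% of its bases are G or C.
Hadha-Hadhb: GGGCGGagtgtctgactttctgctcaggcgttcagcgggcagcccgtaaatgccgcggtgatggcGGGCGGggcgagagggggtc
The next 5 are the 120 bases nearest to the RefSeq gene start that lie before it and outside every annotated exon. Acadl is at chr1:66863310-66863429 (minus strand), Hadh at chr3:131272102-131272221 (minus), Eci1 at chr17:24426521-24426640 (plus), Acadvl at chr11:70015429-70015548 (minus) and Cpt1a at chr19:3323165-3323284 (plus). The first 3 show GC boxes, Acadvl an AGGTCA alone, and Cpt1a both. Acaa2 and Etfdh were called without KO replicate 1 as well, but no such stretch was taken for them. Acadm, Ech1 and Etfa were also called without KO replicate 1 and are not printed. Their 120 bases, taken in the same way, hold 0 matches of either motif. Outside those bases, GGGCGG lies 86 and 31 bases before the RefSeq start of Ech1, and AGGTCA 249 bases before that of Acadm.
Acadl: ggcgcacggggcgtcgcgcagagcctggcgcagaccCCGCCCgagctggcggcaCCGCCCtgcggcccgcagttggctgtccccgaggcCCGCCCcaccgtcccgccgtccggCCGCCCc
Hadh: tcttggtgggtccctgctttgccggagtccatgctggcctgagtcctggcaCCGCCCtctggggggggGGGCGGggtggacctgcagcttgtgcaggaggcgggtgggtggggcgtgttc
Eci1: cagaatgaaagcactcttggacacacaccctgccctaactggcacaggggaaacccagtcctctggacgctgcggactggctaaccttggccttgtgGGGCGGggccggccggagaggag
Acadvl: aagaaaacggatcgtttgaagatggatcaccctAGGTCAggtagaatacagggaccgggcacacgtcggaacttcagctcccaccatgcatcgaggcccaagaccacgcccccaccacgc
Cpt1a: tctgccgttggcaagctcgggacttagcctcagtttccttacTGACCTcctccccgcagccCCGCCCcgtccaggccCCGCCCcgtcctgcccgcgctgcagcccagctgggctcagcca

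RefSeq windows from 250 bases before to 50 bases after the gene start matched 25 of the 32 members, with 26 windows. GGGCGG was found on either strand in 19 of the 26 windows (73.1%), beside 35.7% of all 32851 windows. CCAAT was found in 13 (50.0%, beside 37.4%), and AGGTCA in 4 (15.4%, beside 16.3%), those of Acadm, Acadvl, Cpt1a and Echs1. The longer motifs searched were the direct repeat of AGGTCA spaced by 1 base, bound by PPAR with RXR, TCAAGGTCA, the site of oestrogen-related receptors, and TGACGTCA, the cyclic AMP element. All 3 were in 0 of the 26 windows, beside 0.0396%, 0.423% and 1.79% of all windows. AGGTCA lies inside 2 of these longer motifs. These are matches of letters in a short window and no measure of binding.

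As a group, the fatty acid oxidation genes stood higher in 3 of the 4 libraries labelled KO and at the WT level in the fourth. Summed over the 32 genes, the level was 2719, 2820, 2943 and 2981 FPKM in WT replicates 1 to 4, and 2834, 4062, 3924 and 3946 FPKM in KO replicates 1 to 4. KO replicate 1 lay inside the range of the WT libraries and the other 3 lay above it. The sum averaged 2866 ± 120 FPKM over the WT libraries and 3692 ± 575 FPKM over those labelled KO (SD, n = 4). In bulk tissue, fewer cells of a type and less RNA per cell cannot be told apart.

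With all 8 libraries, 0 of the 32 genes passed the test across all genes (limma, Benjamini-Hochberg adjusted p under 0.05), where 6 of 11878 genes (0.0505%) were called higher and 0 lower. The smallest adjusted p among the 32 was 0.347. At an unadjusted p under 0.05, 17 of the 32 were higher and 0 lower, beside 7.50% and 2.76% of all genes tested. The count in both directions was 0 after scaling to the same sum of named genes, a fit whose limit is given below. It was 7 when scaled over genes above 0 in all libraries. The log2 fold change was above 0 for 30 of the 32 genes, beside 54.4% of all genes, with a median of 0.26 beside 0.02 over all genes. The other two were Acad9 and Pex11a.

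The fit was repeated with each library left out in turn. That without KO replicate 1, singled out after the values were seen, called 11 of the 32 genes higher and 0 lower, beside 0.942% and 0.101% of the 11884 genes then tested. The 11 were Acaa2, Acadl, Acadm, Acadvl, Ech1, Eci1, Etfa, Etfdh, Hadh, Hadha and Hadhb. At an unadjusted p under 0.05, 23 were then higher and 0 lower, beside 9.47% and 4.38% of all genes. The median over the 32 genes was then 0.37, beside 0.03 over all genes. Leaving out any other single library gave 0 calls among the 32. A call made after removal of the library that stands apart is a description of the other 7 libraries.

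The rank of single libraries shows the same split. KO replicate 1 was above every WT library for 4 of the 32 genes (20.9% of all genes), below every WT library for 9 (20.9%) and inside the WT range for 19 (58.2%). KO replicates 2, 3 and 4 were above every WT library for 27, 26 and 25 of the 32 genes (29.7%, 21.8% and 32.2% of all genes), and below every WT library for 0, 0 and 0 (20.4%, 26.8% and 12.7%). All 3 were above every WT library together for 23 of the 32 genes, beside 9.35% of all genes, and below for 0, beside 4.51%. KO replicate 1 was the lowest of the KO libraries for 29 of the 32, beside 31.8%. The 4 KO libraries lay above all 4 WT libraries for 3 genes, Hadh, Echs1 and Etfb, a share of the 32 to be read beside 3.89% of all genes, and below them for 0, beside 1.61%.

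**Figure D1:**
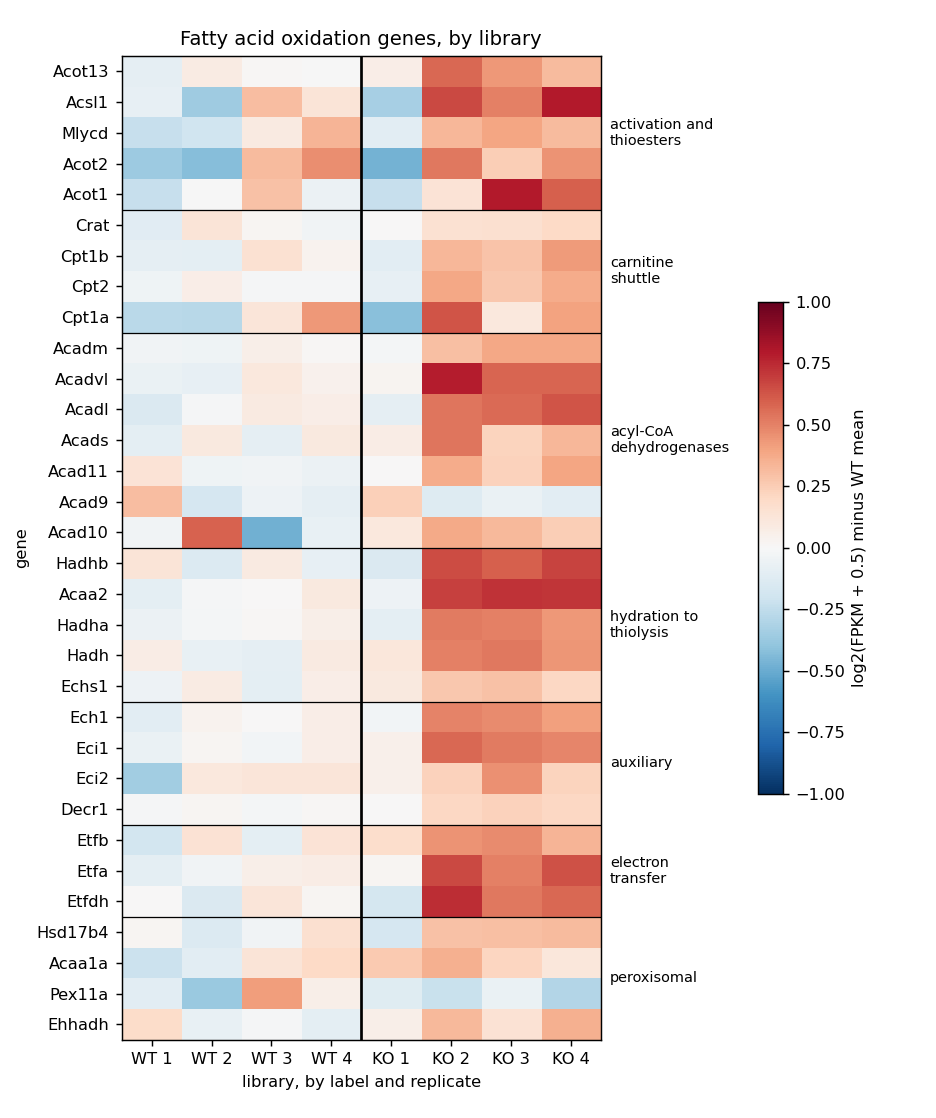
Colour gives the difference in log2(FPKM + 0.5) from the WT mean (1 row per gene, 1 column per library, scale clipped at -1 and 1), grouped by step of the pathway. Columns KO 2, KO 3 and KO 4 are red in nearly every row, while KO 1 resembles the WT columns.

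Scaling moved the sizes. Each library was scaled so that its named genes had the same sum (TPM, here a share of the named genes only, without the entries that had no name). The median over all genes then moved from 0.02 to -0.18 and that over the 32 genes from 0.26 to 0.06. After that rescaling 25 of the 32 were above 0, with Cpt1a, Crat, Decr1, Acot2 and Hsd17b4 now below it, and 30 of the 32 were above the median of all genes. Rescaled instead over genes above 0 in every library, the medians were 0.18 for the 32 and -0.07 for all genes. TPM left 0 of the 32 genes called higher with all 8 libraries (0.505% of all genes) and 0 without KO replicate 1 (0.463%). The sum used for TPM includes abundant genes listed at 0 in some libraries. Tnnt3 was at 0 or at 7955 to 8888 FPKM, and Atp2a1 at 6599 FPKM in KO replicate 2 and 0 elsewhere. A value of 0 can be a failed estimate, so the loss of calls under TPM may reflect such entries, which was not tested. Without KO replicate 1, the scaling over genes above 0 called 7 of the 32 higher (0.488%), and equal medians of all libraries also called 7 (0.825%). Acaa2, Acadl, Acadvl, Eci1 and Etfa were called under both of these scalings. Acadm (adjusted p = 0.167 and 0.135, in the order of these scalings) and Hadh (0.109 and 0.0721) lost their calls under both. Hadhb (0.0892) and Etfdh (0.0892) lost theirs over genes above 0, and Hadha (0.0569) and Ech1 (0.101) with equal medians. At an unadjusted p under 0.05 the count without KO replicate 1 was 0 with TPM, 18 over genes above 0 and 21 with equal medians, where the deposited FPKM gave 23.

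Activation and thioester genes prepare fatty acids for oxidation or release them from coenzyme A, and all 5 had a log2 fold change above 0 with none past the test. Acsl1, the main acyl-CoA synthetase of muscle, stood at 105, 87.1, 138 and 122 FPKM in the WT libraries and at 88.4, 176, 158 and 194 FPKM in the KO libraries. In Acsl1 the first KO library was among the lowest of all 8 and the other 3 were above every WT library (0.41, SE 0.25, adjusted p = 0.613). Acsl1 shares 1039 exonic bases with Gm45244 on the opposite strand, so its value is uncertain with no strand setting given. Acot13, a thioesterase of mitochondria, stood at 166 to 187 FPKM in the WT libraries and at 185 in KO replicate 1, with 220 to 263 FPKM in the other KO libraries (0.35, SE 0.11, adjusted p = 0.353). Mlycd removes malonyl-CoA, the inhibitor of carnitine palmitoyltransferase 1, and its groups overlapped (55.9 to 83.5 FPKM in WT, 61.2 to 86.7 FPKM in KO; 0.24, adjusted p = 0.649). The acyl-CoA thioesterases Acot1 (0.727 to 1.99 FPKM) and Acot2 (10.2 to 20.9 FPKM, joined with Acot3 and Acot5 in the files) were low. Their transcripts are 94.29% identical over 1330 aligned bases, so the split of reads between them is uncertain.

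Carnitine shuttle genes had the smallest summed difference of the mitochondrial steps, and none of the 4 passed with or without KO replicate 1. Cpt1b, the muscle form of the enzyme that commits fatty acids to entry, stood at 114, 113, 135 and 124 FPKM in the WT libraries and at 113, 153, 148 and 162.97 FPKM in the KO libraries. The first KO library was level with the lowest WT libraries, and KO replicates 2 to 4 were above all of them (0.23, SE 0.12, adjusted p = 0.540; 0.35 and adjusted p = 0.119 without KO replicate 1). Cpt1b is joined with Chkb in the files and shares 2744 exonic bases with the readthrough gene model Gm44502. Cpt1a, the liver form, stood at 4.24 to 7.25 FPKM in WT and 3.81 to 8.38 FPKM in KO, far under Cpt1b on this scale per length. Cpt2, which returns the acyl group to coenzyme A inside the mitochondrion, stood at 34.5, 37.3, 35.3 and 35.3 FPKM in WT and at 33.6, 46.6, 43.1 and 46.1 FPKM in KO. As for Cpt1b, KO replicate 1 lay just under the WT libraries and the other 3 were above them, and the adjusted p without it was 0.0639 (log2 fold change 0.34, SE 0.07). Crat, which makes acetylcarnitine, had the smallest positive change of the 32, from 148 ± 10.7 to 162 ± 9.46 FPKM (0.13, SE 0.08, SD with n = 4), and was below 0 after rescaling to TPM (-0.08).

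The acyl-CoA dehydrogenases catalyse the first step of each turn for chains of a given length. In the fit without KO replicate 1, 3 of the 7 were called higher, beside 0.942% of all genes. Acadvl, for very long chains, stood at 159, 158, 180 and 172 FPKM in the WT libraries and at 170, 288, 251 and 250 FPKM in the KO libraries. Its 3 higher KO libraries were well clear of the WT range, which held KO replicate 1 (0.49, SE 0.15, adjusted p = 0.353; 0.65, SE 0.08, adjusted p = 0.0136 without KO replicate 1). Acadvl lies at chr11:70010183-70015411 and shares 1151 exonic bases with Dvl2 on the opposite strand, which leaves its level uncertain. Acadl, for long chains, stood at 120, 132, 141 and 139 FPKM in WT and at 124, 192.6, 197 and 206 FPKM in KO. The pattern was that of Acadvl (0.41, SE 0.16, adjusted p = 0.425; 0.58, SE 0.08, adjusted p = 0.0147 without KO replicate 1), and no other gene model overlaps its exons. Acadm, for medium chains, stood at 164, 163.4, 175 and 170 FPKM in WT and at 165, 207, 220 and 220 FPKM in KO (0.26, SE 0.10, adjusted p = 0.423; 0.36, SE 0.06, adjusted p = 0.0469 without KO replicate 1), a call lost under each of the 3 other scalings of those 7 libraries.

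Acads, for short chains, had 3 of 4 KO libraries above the WT range of 39.5 to 45.3 FPKM and did not pass in either fit (0.29, adjusted p = 0.411; 0.37, adjusted p = 0.151 without KO replicate 1). Acad11, an enzyme for longer chains whose entry in the files also spans other gene models and is uncertain for that reason, stood at 22.7 to 26.0 FPKM in WT and 23.8 to 31.3 FPKM in KO (0.25, adjusted p = 0.435). Acad9, which also serves in the assembly of complex I, did not share this pattern. It stood at 24.0, 17.1, 18.6 and 18.2 FPKM in the WT libraries and at 22.9, 17.7, 18.4 and 17.9 FPKM in the KO libraries. Replicate 1 was the highest in each group, and the 3 other libraries of both groups lay together (-0.01, SE 0.12, adjusted p = 0.979). Acad10 was the lowest of the family at 0.834 to 2.30 FPKM, with overlapping groups.

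On the deposited FPKM, the enzymes from hydration to thiolysis had the largest share of calls, 4 of 5 in the fit without KO replicate 1. This rank did not hold under the other scalings. Over genes above 0, Acaa2 and Hadha were called here, beside Ech1 and Eci1 of the 4 auxiliary enzymes. With equal medians, Acaa2 and Hadhb were called here, beside Etfa and Etfdh of the 3 electron transfer genes. TPM called 0. Hadha and Hadhb, printed above by the 85 bases between them, encode the trifunctional protein that handles long chains. Hadha stood at 109, 112, 115 and 118 FPKM in WT and at 106, 162.9, 160.8 and 153 FPKM in KO. Hadhb stood at 222, 185, 216 and 192 FPKM in WT and at 184, 320, 308 and 326 FPKM in KO. For both, KO replicate 1 was the lowest of all 8 libraries and the other KO libraries were above every WT library. Hadha had a log2 fold change of 0.34 (SE 0.13, adjusted p = 0.440), or 0.48 (SE 0.06, adjusted p = 0.0138) without KO replicate 1. Hadhb had 0.45 (SE 0.18, adjusted p = 0.443), or 0.64 (SE 0.08, adjusted p = 0.0138).

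Acaa2, the mitochondrial thiolase of medium chains, had the highest log2 fold change of the 32. It stood at 117, 124, 126 and 134 FPKM in the WT libraries and at 121, 202, 207 and 205 FPKM in the KO libraries. Here too KO replicate 1 was inside the WT range, and the other 3 lay close together, far above it (0.52, SE 0.17, adjusted p = 0.367; 0.71, SE 0.07, adjusted p = 0.00573 without KO replicate 1). Hadh, the dehydrogenase of short chains, stood at 99.3, 89.6, 88.9 and 101 FPKM in WT and at 102, 135, 136 and 128 FPKM in KO. All 4 KO libraries were above all WT libraries, KO replicate 1 by a small margin (0.40, SE 0.10, adjusted p = 0.347; 0.49, SE 0.07, adjusted p = 0.0239 without it, a call lost under each of the 3 other scalings). Echs1, the short-chain hydratase, also had groups that did not overlap, at 86.4 to 97.8 FPKM in WT and 98.9 to 114 FPKM in KO, and passed in neither fit (0.22, SE 0.07, adjusted p = 0.374; adjusted p = 0.162 without KO replicate 1).

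**Figure D2:**
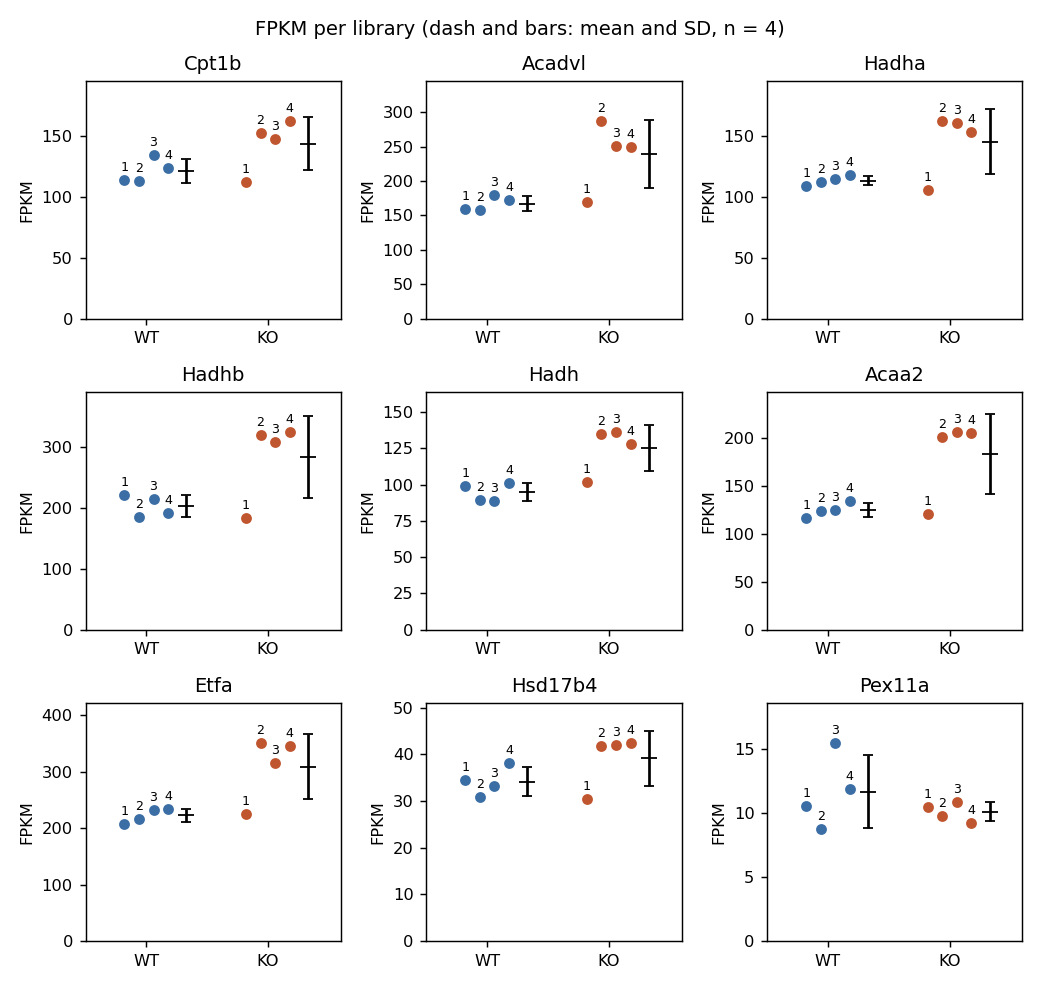
Each panel shows FPKM (linear axis from 0) of 1 gene in each library, numbered by replicate, with the mean and SD of each group (n = 4). In 7 of the 9 panels KO replicate 1 lies beside the WT points and KO replicates 2 to 4 lie above them, Hadh keeps KO replicate 1 just above WT, and Pex11a shows no such split.

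The auxiliary enzymes bring double bonds of unsaturated fatty acids into a form that beta-oxidation can use. In the fit without KO replicate 1, 2 of the 4 were called higher, beside 0.942% of all genes. Eci1, an isomerase that shifts double bonds, stood at 114, 121, 117 and 125 FPKM in WT and at 124, 178, 171.3 and 168 FPKM in KO. KO replicate 1 was inside the WT range and the others were above it (0.41, SE 0.11, adjusted p = 0.347; 0.53, SE 0.06, adjusted p = 0.0125 without KO replicate 1). Ech1, another isomerase of this kind, joined with Lgals4 in the files, stood at 155, 170, 166 and 174 FPKM in WT and at 162.7, 234, 230 and 221 FPKM in KO (0.34, SE 0.12, adjusted p = 0.399; 0.46, SE 0.07, adjusted p = 0.0239 without KO replicate 1). Decr1, the dienoyl-CoA reductase, was tightly spread in WT (48.6 to 49.8 FPKM), with 49.5 FPKM in KO replicate 1 and 56.9 to 57.8 FPKM in the other 3. Its change was small in both fits (0.16, adjusted p = 0.454; 0.21, adjusted p = 0.146 without KO replicate 1) and was -0.05 after rescaling to TPM. Eci2, a related isomerase, had 1 low WT library at 40.2 FPKM, with the other WT libraries at 55.4 to 56.0 and the KO libraries at 53.2 to 70.7 FPKM (0.24, adjusted p = 0.561). Its transcript is 88.95% identical to that of Eci3 over the aligned part, so reads may be shared.

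Electron transfer genes had the highest median log2 fold change of the steps, 0.42. Etfa and Etfb encode the subunits of the electron transfer flavoprotein, which takes electrons from the dehydrogenases, and Etfdh passes them to ubiquinone. Etfa stood at 208, 217, 232 and 234 FPKM in WT and at 226, 351, 316 and 345 FPKM in KO. KO replicate 1 lay among the WT libraries and the other 3 far above (0.45, SE 0.14, adjusted p = 0.353; 0.60, SE 0.08, adjusted p = 0.0127 without KO replicate 1). Etfdh stood at 67.3, 60.5, 72.7 and 68.0 FPKM in WT and at 59.2, 112, 97.0 and 100 FPKM in KO, with KO replicate 1 the lowest of the 8 (0.42, SE 0.18, adjusted p = 0.480; 0.61, SE 0.09, adjusted p = 0.0186 without it). Etfdh shares 278 exonic bases with 4930579G24Rik on the opposite strand. Etfb, joined with Cldnd2 in the files, stood at 211, 265, 224 and 264 FPKM in WT and at 271, 327, 333 and 304 FPKM in KO. Its groups did not overlap, yet it passed in neither fit, with a WT group split into lower and higher libraries (0.36, SE 0.10, adjusted p = 0.347; 0.42, adjusted p = 0.120 without KO replicate 1).

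**Figure D3:**
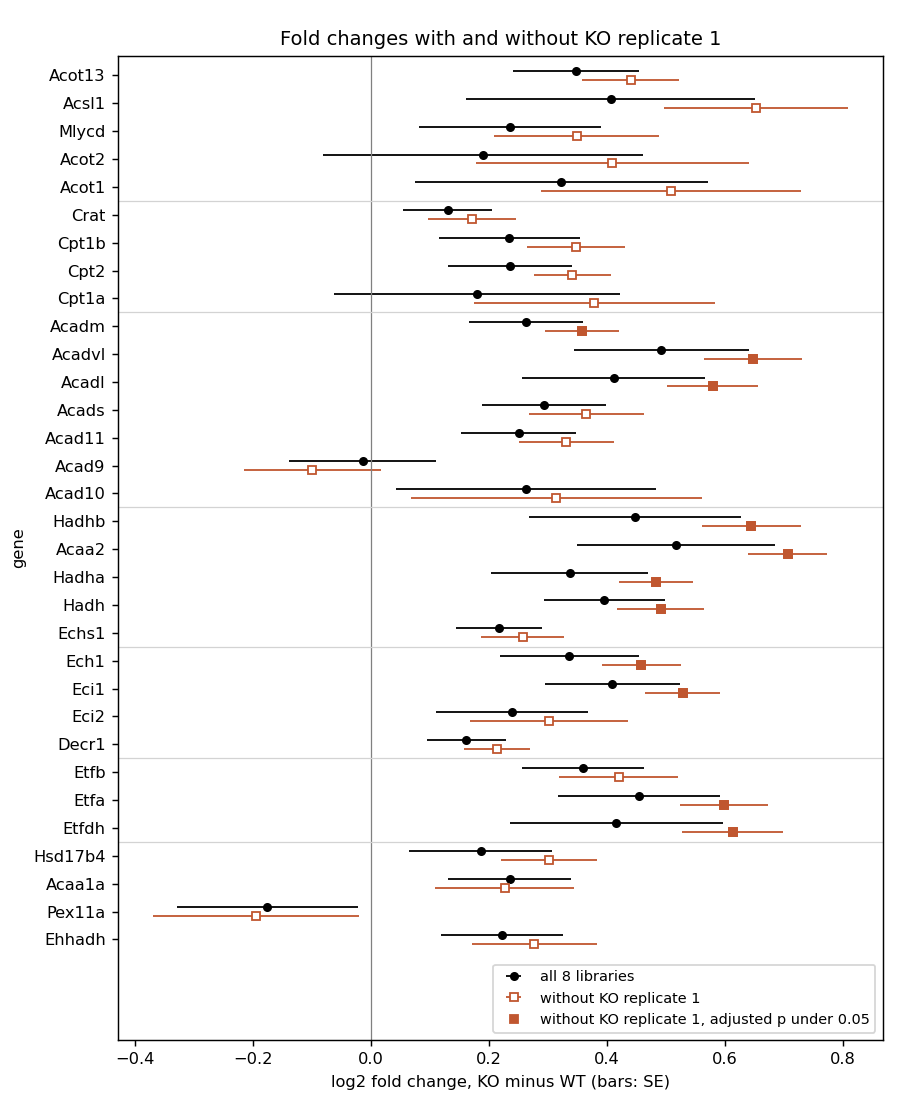
Points are log2 fold changes (KO minus WT) of the 32 genes with SE as bars, for all 8 libraries (black) and without KO replicate 1 (orange, filled where the adjusted p is under 0.05). The 11 filled points lie among the dehydrogenases, the steps to thiolysis, the auxiliary enzymes and electron transfer, and none lies in the other 3 groups.

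The 4 peroxisomal genes of the set differed less in sum, and none of them passed in either fit. They do not stand for all peroxisomal genes, as others are among the other pathway genes given below. Of the 55 tested there, Phyh had 0.50 and was called without KO replicate 1, and Amacr had 0.34. The median of the 55 was 0.12, with 12 below 0. Hsd17b4, the bifunctional enzyme of very long and branched chains, stood at 34.6, 30.8, 33.1 and 38.0 FPKM in WT and at 30.3, 41.9, 42.1 and 42.4 FPKM in KO. It followed the mitochondrial genes, with KO replicate 1 the lowest of all 8 libraries (0.19, SE 0.12, adjusted p = 0.643; 0.30, adjusted p = 0.155 without it), but was -0.03 after rescaling to TPM. Acaa1a, the peroxisomal thiolase, did not follow them. It stood at 25.8, 27.8, 32.9 and 34.5 FPKM in WT and at 36.1, 38.6, 34.9 and 32.6 FPKM in KO, where KO replicate 1 was high and KO replicate 4 was inside the WT range (0.24, SE 0.10, adjusted p = 0.489). Its transcript is 96.64% identical to that of Acaa1b over the aligned part, and 290 of its exonic bases lie opposite Myd88. Ehhadh, the other bifunctional enzyme, was low, at 4.64 to 5.75 FPKM in WT and 5.23 to 6.55 FPKM in KO (0.22, adjusted p = 0.507). Pex11a, which acts in peroxisome division, stood at 8.77 to 15.5 FPKM in WT and 9.25 to 10.9 FPKM in KO (-0.18, SE 0.15, adjusted p = 0.740).

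Set side by side, the steps differed in size more than in pattern. The summed FPKM of KO over WT means was 1.34 for hydration to thiolysis and for electron transfer, 1.30 for the dehydrogenases, 1.28 for activation, 1.26 for the auxiliary enzymes, 1.14 for the carnitine shuttle and 1.12 for the peroxisomal genes. In KO replicate 1 alone these ratios to the WT mean ran from 0.928 to 1.05. The peroxisomal genes made up 2.82%, 2.56%, 2.94% and 2.99% of the summed FPKM of the 32 genes in the WT libraries, and 2.90%, 2.38%, 2.38% and 2.30% in the KO libraries. The share was thus lower in KO replicates 2 to 4 than in any other library, and no test was made of it.

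**Figure D4:**
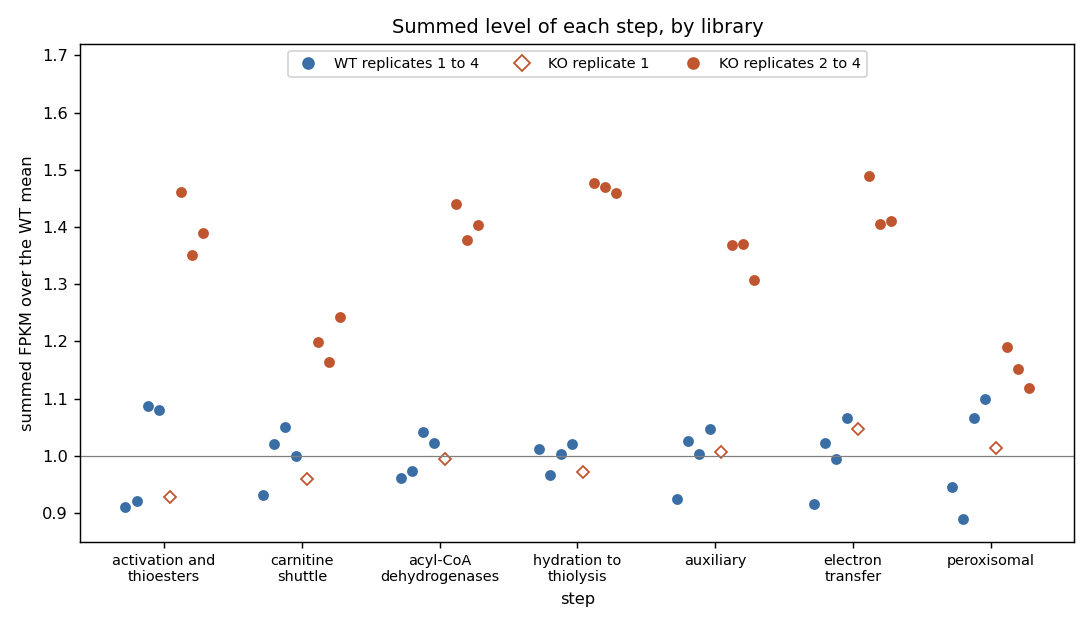
Each point is the summed FPKM of 1 step in 1 library, divided by the mean of the 4 WT libraries (linear axis, line at 1). KO replicate 1 (open diamonds) lies between 0.928 and 1.05 in every step, while KO replicates 2 to 4 reach 1.49 in electron transfer and at most 1.19 in the peroxisomal genes.

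Ratios of partner genes differed between the groups by less than the spread of the libraries. The ratio of Cpt1a to Cpt1b was 0.0440 ± 0.0100 in WT and 0.0427 ± 0.00902 in KO (SD, n = 4; log2 difference -0.04, two-sided exact permutation p = 0.800 over 70 assignments). That of Hadha to Hadhb was 0.561 ± 0.0606 and 0.519 ± 0.0434 (SD, n = 4; -0.11, exact permutation p = 0.286, adjusted p = 0.729 over 3 ratios). That of Etfa to Etfb was 0.931 ± 0.0986 and 0.998 ± 0.135 (SD, n = 4; 0.10, exact permutation p = 0.486, adjusted p = 0.729 over 3 ratios). The smallest p that 4 against 4 libraries allow is 0.0286. A difference in proportion within this spread was not detectable with 4 mice a group.

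Other genes of the pathway, listed by function, had a lower median. Of 62 listed, 55 were tested and 0 were called with all 8 libraries, with 43 above 0 (54.4% of all genes) and a median log2 fold change of 0.12. This direction turned with the scaling: after TPM 20 were above 0 and 35 below (median -0.09, beside -0.18 over all genes), and scaled over genes above 0 in all libraries 31 were above 0 (median 0.02, beside -0.07). The 3 with the smallest p, none past the test, were Amacr, the racemase of branched chains (0.34, adjusted p = 0.326), Phyh, which starts the breakdown of phytanic acid (0.50, adjusted p = 0.347), and Pxmp2, a channel of the peroxisome membrane (0.27, adjusted p = 0.353). Phyh stood at 124, 130, 120 and 131 FPKM in WT and at 136, 211, 192 and 186 FPKM in KO, so KO replicate 1 was again nearest to WT. Phyh was the 1 gene of the 55 called in the fit without KO replicate 1 (0.63, SE 0.07, adjusted p = 0.00936), where 46 of the 55 were above 0. It was not called there after TPM.

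Some markers of oxidative fibres stood high in the same libraries. The summed level of 10 oxidative fibre markers, all 10 above 0 in every library, was 2513 to 3109 FPKM in WT, 2900 in KO replicate 1 and 6093 to 6689 FPKM in KO replicates 2 to 4. Myh2, the myosin of fast oxidative fibres, stood at 96.6 to 156 FPKM in WT, 125 in KO replicate 1 and 391 to 494 FPKM in the other 3. Mb, the oxygen store myoglobin, stood at 1624 to 1937 FPKM, 1838 and 3645 to 4704 FPKM in the same order. Mb made up most of the sum. In KO replicates 2 to 4, 5 of the 10 markers were above every WT library (Myh2, Myl2, Myl3, Mb and Pln) and the other 5 were not (Myh7, Tnni1, Tnnc1, Tnnt1 and Atp2a2), with the slow myosin Myh7 at a log2 fold change of -0.09. The part of these fibres in the results above was not tested. Fast fibre markers, of which 7 of 10 were above 0 in every library, with Myh4 at 0 in all and Tnnt3 and Atp2a1 at 0 in some, summed to 47426 to 63728 FPKM in WT and 43186 to 63229 FPKM in KO. Pvalb, Mybpc2 and Pygm, 3 of the 7, were below every WT library in KO replicates 2 to 4, and 0 were above. The 7 adipocyte markers, all above 0, summed to 376 to 496 FPKM in WT and 335 to 514 FPKM in KO, highest in KO replicate 1, with most of the sum from Cfd. Lep and Plin1, singled out after their values were seen, were below every WT library in KO replicates 2 to 4. Lep, the hormone leptin, stood at 2.29 to 4.40 FPKM in WT, 2.79 in KO replicate 1 and 0.324 to 0.577 FPKM in the other 3 (-1.59, adjusted p = 0.347, and -2.05, adjusted p = 0.00936 without KO replicate 1). Plin1, a coat protein of lipid droplets, stood at 11.6 to 18.7 FPKM, 15.5 and 4.95 to 8.65 FPKM in the same order (-0.73, adjusted p = 0.450, and adjusted p = 0.0960 without KO replicate 1). The limma fit of all 8 libraries after TPM gave Lep an adjusted p of 0.00172. That fit also gave Atp2a1, at 0 in every library but KO replicate 2, an adjusted p of 6.63e-13. The p-values of that fit thus need not follow the spread of a single gene. The part of adipocytes in the results was not tested. Endothelial (71.3 to 87.8 FPKM in WT, 63.2 to 118 in KO), macrophage (30.3 to 40.4 and 26.5 to 44.6 FPKM) and fibroblast markers (645 to 729 and 501 to 742 FPKM) overlapped between the groups, as did the brown adipocyte markers (3.61 to 7.45 and 4.62 to 6.61 FPKM, with Ucp1 at 0 in some libraries). The 5 erythroid markers were highest in KO replicate 1 (3171 FPKM, beside 509 to 1598 in the other 7), and the hepatocyte markers Apoa1 and Ttr were at 0 in all 8 libraries.

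**Figure D5:**
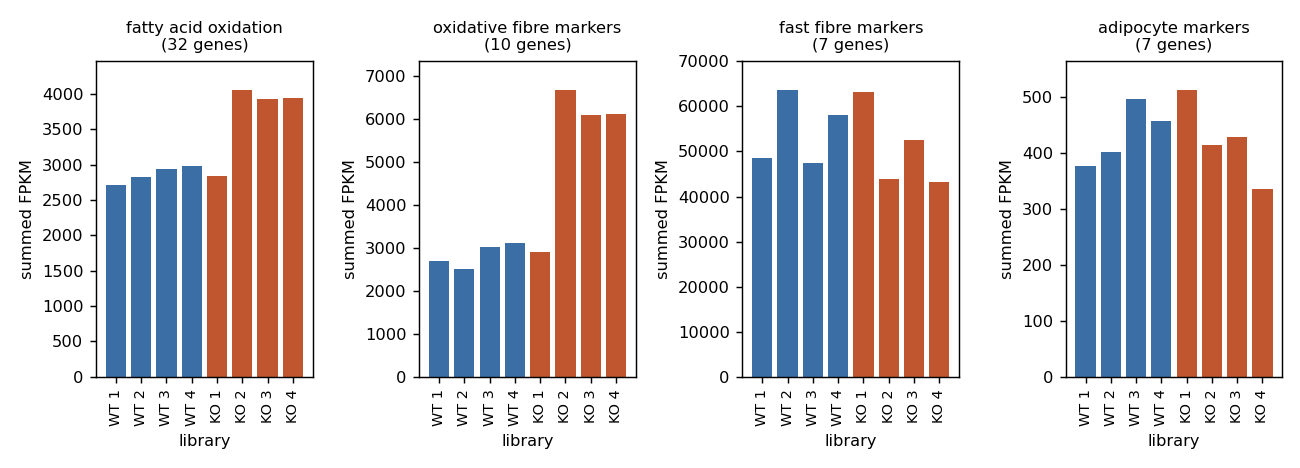
Bars give summed FPKM per library (linear axes from 0) of the 32 fatty acid oxidation genes and of 3 marker lists. The fatty acid oxidation genes and the oxidative fibre markers share their high bars, KO 2, KO 3 and KO 4. The sums of the fast fibre and adipocyte markers, carried by their most abundant genes, do not show this split, though Pvalb, Mybpc2, Pygm, Lep and Plin1 within them were low in those 3 libraries.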

How the data were processed

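FPKM per gene entry were made by the authors and deposited as 1 table per library, per the file headers. TopHat2 2.1.1, Bowtie2 2.2.6, Cufflinks 2.2.1, FastQC and the build mm10 are named in the submitters' processing notes, with no role. The annotation, filters and strand setting are not given in the sources used here, so genes that overlap on opposite strands cannot be separated. Of 46036 entries per table, 2379 had no gene name, held 65.8% to 93.2% of the summed FPKM and were left out. For a repeated name, the entry with the highest mean was used.

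Genes whose mean reached 1 FPKM were compared as log2(FPKM + 0.5) by limma 3.58.1 (R 4.3.3; KO minus WT, group term only, variances moderated with a mean trend, two-sided). Benjamini-Hochberg adjustment ran over all genes tested, with a threshold of 0.05. Fold changes are on that log2 scale, which understates those of low genes. The fit was checked on simulated data. Ratios were compared by exact permutation over libraries. Genes were placed with GENCODE M21, and the longest coding transcripts of similar genes were aligned. All 32 genes are named. Other pathway genes are named where past the threshold, otherwise the 3 with the smallest p. The members and lists were chosen with earlier results of these data known. The motifs for GC box, CCAAT box and nuclear receptor core site were added after the search for the longer ones. Alternatives were other pseudocounts, filters, scalings, variance models, a replicate block and each library left out.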

Additional observations from a re-analysis of the deposited data

Results flagged for a closer look

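Among 92 groups of 4 values checked, 15 had a library whose gap to the nearest other exceeded Dixon's 95% critical value as a share of the range, where chance gives about 1 in 20 groups. The groups share libraries and so are not independent. KO replicate 1 was the low one among the KO libraries for Acadl (124 FPKM, the others 192.6 to 206), Hadha (106, the others 153 to 162.9), Hadhb (184, the others 308 to 326), Acaa2 (121, the others 202 to 207), Decr1 (49.5, the others 56.9 to 57.8) and Hsd17b4 (30.3, the others 41.9 to 42.4). It was low in the summed FPKM of the dehydrogenases (552, the others 765 to 799), of hydration to thiolysis (611, the others 919 to 930), of all 32 genes (2834) and of the 28 outside the peroxisomal group (2752, the others 3831 to 3965). It was high for Acad9 (22.9 FPKM, the others 17.7 to 18.4), for the peroxisomal share (2.90%, the others 2.30% to 2.38%) and for Mss51 (340 FPKM, the others 201 to 216). WT replicate 1 was low for Eci2 (40.2 FPKM, the others 55.4 to 56.0) and high for Acad11 (26.0 FPKM, the others 22.7 to 23.1).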

How the results depend on the processing

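For single members, 757 of 798 values under alternatives kept their direction and side of the threshold, 25 newly passed the test and 16 changed sign. Rescaling to TPM gave -0.0161 for Cpt1a, -0.0841 for Crat, -0.0506 for Decr1, -0.0167 for Acot2 and -0.0258 for Hsd17b4. TPM without KO replicate 1 gave -0.1498 for Crat, -0.0636 for Echs1, -0.0169 for Eci2, -0.1056 for Decr1, -0.0152 for Hsd17b4, -0.0892 for Acaa1a and -0.0157 for Ehhadh. Acad9 was 0.0877 without WT replicate 1 and 0.0228, 0.0039 and 0.0158 without KO replicates 2, 3 and 4 (lowest -0.0996, without KO replicate 1). The log2 difference in the Cpt1a to Cpt1b ratio was 0.1043 without WT replicate 4, and 0.063 and 0.001 without KO replicates 1 and 3 (lowest -0.1692, without KO replicate 2). The cause of these changes was not tested.

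With each library left out in turn, the members called ran from 0 to 11, their median from 0.2335 to 0.372, the other pathway genes called from 0 to 1, and all genes called from 4 to 124 (6 with all 8). The count of 124 came without KO replicate 1, and the next, 10, without KO replicate 2. The median of the members was 0.0648 after TPM and 0.1779 with each library scaled on the genes above 0 in all of them. Without KO replicate 1, TPM, that rescaling and equal medians gave 0, 7 and 7 members called. Both latter settings called 1 other pathway gene, and all genes called were 110, 81 and 109. The median was then 0.0834 with TPM and 0.33 with equal medians. TPM with all 8 libraries called 114 genes and 0 members. The settings that pair a scaling with a library left out, and the scaling over genes above 0, were chosen after seeing the data.

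With the replicate number as a block, 0 of all genes and 0 members were called, with 14 members at an unadjusted p under 0.05. Libraries with the same number correlated at -0.0105, -0.0775, -0.0809 and 0.0093, and those with unlike numbers at -0.1563 to 0.1327. This gave no sign that the numbers pair the mice, but so few libraries cannot exclude it. FPKM without counts limit what can be said of the low genes Acot1, Acad10, Ehhadh and Cpt1a.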
